A study of Mus musculus with 2 samples.

Results

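The 44 genes described here are a panel of cell-cycle genes: 19 whose transcripts are used during DNA replication (S members) and 25 used in G2 and mitosis (G2/M members). They were chosen by symbol and not by a cut on any measured value, though with earlier results of these data known. All 44 symbols were found once among the 32285 genes of the deposited matrices. They were measured in colon tumours of mice given azoxymethane and dextran sulfate sodium (AOM/DSS), a carcinogen followed by a colitis-inducing agent. Of the 2 libraries, the KO library came from Gsk3b (IEC-/-) mice, whose intestinal epithelium was made to lose Gsk3b, and the WT library from Gsk3b (IEC+/+) mice. Both groups carried AOM/DSS-induced tumours, so neither is untreated tissue. The labels give neither the age nor the number of animals, nor the Cre driver. With 1 library per genotype nothing could be tested: every interval below is a 95% interval for counting error alone, and genotype and library cannot be told apart.

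In a dividing cell, licensing factors load the MCM helicase on replication origins, firing factors start the forks, and polymerase, clamp and nucleotide-supply enzymes copy the DNA. The cell then switches to cyclin-dependent kinase 1 (Cdk1) with its cyclins, condenses its chromosomes, and separates them with kinetochores, spindle motors and the anaphase-promoting complex. E2F factors drive most replication genes, while many mitotic genes depend on a promoter element called the cell cycle genes homology region (CHR), read by the DREAM and B-MYB/FOXM1 complexes. In the healthy colon, division is kept to the lower crypt, where Wnt signalling is high. Gsk3b is a kinase of the complex that marks beta-catenin for destruction and has other cell-cycle substrates, cyclin D among them.

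The promoters shown are those of the G2/M and S members with the most epithelial UMIs that hold a match to CHR (TTTGAA) or E2F (TTTNNCGC). They are shown because these letters separate the 2 lists. RefSeq promoter windows of GRCm38.p6, running from 250 bases before to 50 after the start, matched 39 of the 44 members. In these windows, with both strands searched, CHR letters stood in 16 of 22 G2/M members and in 2 of 17 S members (Mcm2 and Cdc45), against 20.2% of 27025 genes. E2F letters stood in 10 of 17 S members and in 1 of 22 G2/M members (Cdk1), against 5.93% of all genes. The CCAAT box (CCAAT) did not separate the lists: it stood in 18 of 22 G2/M members and 13 of 17 S members, against 41.1% of all genes. The median CHR match in G2/M members began at position -15 from the start, and the median E2F match in S members at -84. A match describes letters only. The windows run 5′ to 3′ on the gene's strand: Ube2c (chr2:164769679-164769978, plus strand), Top2a (chr11:99024140-99024439, minus), Mki67 (chr7:135716330-135716629, minus), Pclaf (chr9:65890073-65890372, plus), Mcm7 (chr5:138171834-138172133, minus) and Tyms (chr5:30073576-30073875, minus). Capitals mark the CHR matches in the first 3 and the E2F matches in the last 3, and a match on the opposite strand appears as its reverse complement.
Ube2c: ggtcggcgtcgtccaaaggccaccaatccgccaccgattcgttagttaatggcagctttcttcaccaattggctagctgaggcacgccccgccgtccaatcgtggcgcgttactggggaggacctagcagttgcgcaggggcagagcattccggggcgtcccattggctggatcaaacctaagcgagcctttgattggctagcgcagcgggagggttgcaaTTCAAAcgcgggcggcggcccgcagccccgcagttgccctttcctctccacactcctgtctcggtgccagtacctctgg
Top2a: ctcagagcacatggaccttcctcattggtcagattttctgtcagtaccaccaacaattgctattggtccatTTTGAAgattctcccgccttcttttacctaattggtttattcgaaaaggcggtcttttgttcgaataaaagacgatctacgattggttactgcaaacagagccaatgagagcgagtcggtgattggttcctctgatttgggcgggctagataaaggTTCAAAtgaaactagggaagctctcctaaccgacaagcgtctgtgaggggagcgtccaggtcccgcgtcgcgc
Mki67: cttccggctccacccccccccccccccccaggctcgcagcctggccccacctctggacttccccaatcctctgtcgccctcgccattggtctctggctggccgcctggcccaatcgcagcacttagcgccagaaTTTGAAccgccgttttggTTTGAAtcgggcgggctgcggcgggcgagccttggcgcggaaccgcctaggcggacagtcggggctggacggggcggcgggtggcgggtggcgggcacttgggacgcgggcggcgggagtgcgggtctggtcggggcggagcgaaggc
Pclaf: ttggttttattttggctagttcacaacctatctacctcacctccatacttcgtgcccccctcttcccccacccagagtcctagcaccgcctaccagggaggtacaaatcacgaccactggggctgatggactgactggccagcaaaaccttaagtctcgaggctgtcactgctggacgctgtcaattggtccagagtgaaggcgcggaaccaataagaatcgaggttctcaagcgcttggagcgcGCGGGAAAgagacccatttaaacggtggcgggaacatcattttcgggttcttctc
Mcm7: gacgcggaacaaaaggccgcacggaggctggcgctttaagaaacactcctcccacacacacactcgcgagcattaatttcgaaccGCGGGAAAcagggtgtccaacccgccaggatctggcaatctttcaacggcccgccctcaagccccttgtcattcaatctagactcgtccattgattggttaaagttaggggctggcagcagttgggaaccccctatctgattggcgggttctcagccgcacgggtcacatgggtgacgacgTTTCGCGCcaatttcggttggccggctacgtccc
Tyms: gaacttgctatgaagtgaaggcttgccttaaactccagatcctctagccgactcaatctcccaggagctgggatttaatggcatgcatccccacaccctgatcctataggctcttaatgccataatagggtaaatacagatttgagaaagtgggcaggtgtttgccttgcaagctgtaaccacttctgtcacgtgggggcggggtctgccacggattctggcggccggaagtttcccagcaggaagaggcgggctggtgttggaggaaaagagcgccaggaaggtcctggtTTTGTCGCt

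After filtering, 10571 KO cells (median 3375 UMIs) and 9931 WT cells (median 5123 UMIs) were used, and 35 cell barcodes occurred in both libraries. Gsk3b itself was at 241 CPM in KO epithelium and 263 CPM in WT epithelium, where CPM is a gene's UMIs summed over the cells of a class and scaled to the total of that class and library. The deleted part of the gene is not given in the labels, and a 3′ tag outside it checks nothing. Phase was called on cells thinned to 2000 UMIs, so that cells were called at equal depth. Cells with fewer UMIs were left out, so depth still set which cells entered a share. A cell was S-called with at least 4 UMIs of S members and more of them than of G2/M members, and G2/M-called with at least 4 UMIs of G2/M members and at least as many as of S members. The clusters were made without the 44 genes and the other cell-cycle lists, and the subclusters also without genes correlated with the 44. Mature neutrophils do not divide, and the called share of the whole neutrophil class served as background. The class was not split by maturity: a cluster led by Ngp, Ifitm6 and Mmp8 held 104 of its KO and 894 of its WT cells. Free RNA made up 9.48% to 16.9% of the UMIs of the compared classes, and the droplets without cells held the 44 members at about their epithelial level (1094 CPM in KO droplets and 1095 CPM in WT droplets, against 1239 CPM in KO epithelium and 1268 CPM in WT epithelium).

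Among the classes compared, the called share was highest in the epithelium and next in T cells. Some classes too small to be compared reached such shares, among them mast cells at 12.5% in KO and 12.6% in WT. In the epithelium 10.6% of 3847 KO cells (9.67 to 11.6) and 8.12% of 3881 WT cells (7.28 to 9.02) were G2/M-called, and 3.17% of KO cells (2.64 to 3.77) and 4.97% of WT cells (4.31 to 5.7) were S-called. The intervals of the libraries do not overlap in either phase, and the phases differ in direction. Together 13.8% of KO and 13.1% of WT epithelial cells were called. T cells were S-called at 4.68% of 663 KO cells and 4.5% of 711 WT cells, and G2/M-called at 4.22% in KO and 2.81% in WT, with overlapping intervals. Monocytes and macrophages came lower, at 2.35% G2/M-called of 680 KO cells and 1.68% of 1133 WT cells. Neutrophils gave 0.345% G2/M-called in 1450 KO cells and 0.156% in 1918 WT cells. For G2/M calls B cells were near the neutrophil level: 1 of 432 KO cells and 0 of 98 WT cells were G2/M-called, and the WT count of 0, taken as 3 counts of the 98 cells, allows a share of up to 3.06%. B cells were S-called at 1.39% in KO (0.511 to 3.00) and 1.02% in WT (0.0258 to 5.55), against 0.138% of KO and 0.261% of WT neutrophils. Among epithelial cells 105 KO and 119 WT cells lay at the lowest count that still made a call. Without thinning, 23.3% of KO and 19.3% of WT epithelial cells were G2/M-called at a median of 20547 UMIs in KO and 21606 in WT.

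**Figure D1:**
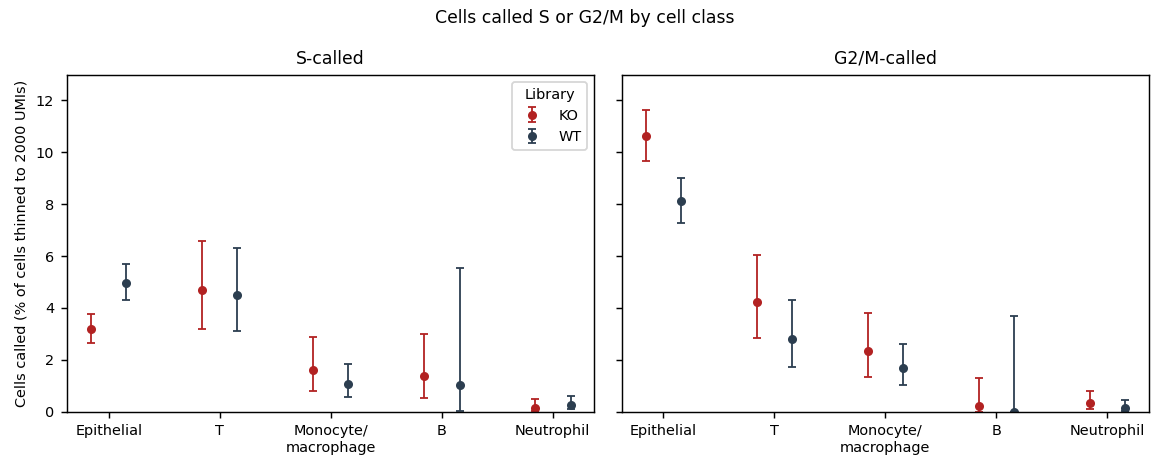
Cells called S (left) or G2/M (right) as a percentage of the cells thinned to 2000 UMIs, by class, KO left of WT; points are shares and bars exact 95% binomial intervals. The epithelial G2/M share is 10.6% in KO and 8.12% in WT, the S share 3.17% in KO and 4.97% in WT, and neutrophils stay under 0.4%.

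The S members as a set were lower in KO epithelium: their summed level was 496 CPM in KO and 572 CPM in WT, a log2 ratio of -0.20 (-0.22 to -0.19). Of the 19, 18 were lower and 1 (Tyms) was marginally higher, with a median log2 ratio of -0.29, while the median of the 18524 genes with 20 or more UMIs was -0.06. Only Cdc6 passed 1.5-fold; 11.5% of all these genes were lower past 1.5-fold. Cdc6, which loads the MCM helicase on origins, was at 5.69 CPM in KO and 9.4 CPM in WT (log2 -0.72, -0.88 to -0.57), the furthest below WT of all members by the interval bound nearest 0, which ranks the members throughout. The helicase itself was lower throughout: Mcm7 was at 42.2 CPM in KO and 56.1 CPM in WT, and Mcm6 at 28.3 CPM in KO and 31.8 CPM in WT. Over the 6 subunits Mcm2 to Mcm7 the log2 ratios ran from -0.48 for Mcm5 to -0.17 for Mcm6. Pclaf, which binds the replication clamp, was at 45.5 CPM in KO and 55.9 CPM in WT. The firing factor Cdc45 (log2 -0.44), the polymerase alpha subunit Pola1 (-0.38) and the uracil glycosylase Ung (-0.37) were lower as well, as were the chromatin factors Uhrf1 (-0.33) and Hells (-0.26).

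A second part of the S list hardly differed between the libraries. The clamp Pcna was at 67.4 CPM in KO and 69.7 CPM in WT, and Slbp, which binds histone mRNA, at 66.7 CPM in each library. Tyms, which makes thymidylate, was at 38.7 CPM in KO and 38.6 CPM in WT. The log2 ratios of the ribonucleotide reductase genes Rrm1 and Rrm2 were -0.05 and -0.08, and that of the GINS subunit Gins2 was -0.04. All 6 intervals reach or include 0 to 2 decimals. This split of the list was made after the values were seen.

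The G2/M members were divided. Their summed level was 742 CPM in KO and 697 CPM in WT (log2 0.09, 0.08 to 0.11), with 15 of 25 higher and 10 lower, and none passed 1.5-fold, against 6.81% of all genes higher and 18.3% in either direction. Cdca3, a trigger of mitotic entry, was furthest above WT at 50.3 CPM in KO and 38.5 CPM in WT (log2 0.39, 0.32 to 0.45). Mki67, which coats mitotic chromosomes, was at 56.9 CPM in KO and 45.6 CPM in WT (log2 0.32). The centromeric histone Cenpa was at 42.9 CPM in KO and 35.7 CPM in WT, and Birc5, a subunit of the chromosomal passenger complex, at 56.4 CPM in KO and 51.7 CPM in WT. The kinetochore motor Cenpe had a log2 ratio of 0.37, and Ccnb1, Ccna2 and Ccnb2, the cyclins of entry into mitosis, had 0.24, 0.20 and 0.17. Their kinase Cdk1 was level at 23.2 CPM in KO and 23.6 CPM in WT. Ube2c, the ubiquitin-conjugating enzyme of the anaphase-promoting complex, was at 59.9 CPM in KO and 60.3 CPM in WT, and Cdca8, another passenger subunit, at 40.4 CPM in KO and 39.1 CPM in WT. On the lower side stood Ect2, which positions the cleavage furrow, at 35.3 CPM in KO and 40.3 CPM in WT (log2 -0.19), and Top2a, which untangles chromosomes, at 52.4 CPM in KO and 57.8 CPM in WT (log2 -0.14). Before doublets were removed the log2 ratio of the G2/M sum was 0.01. S members accounted for 40.1% of member UMIs in KO epithelium and 45.1% in WT epithelium.

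**Figure D2:**
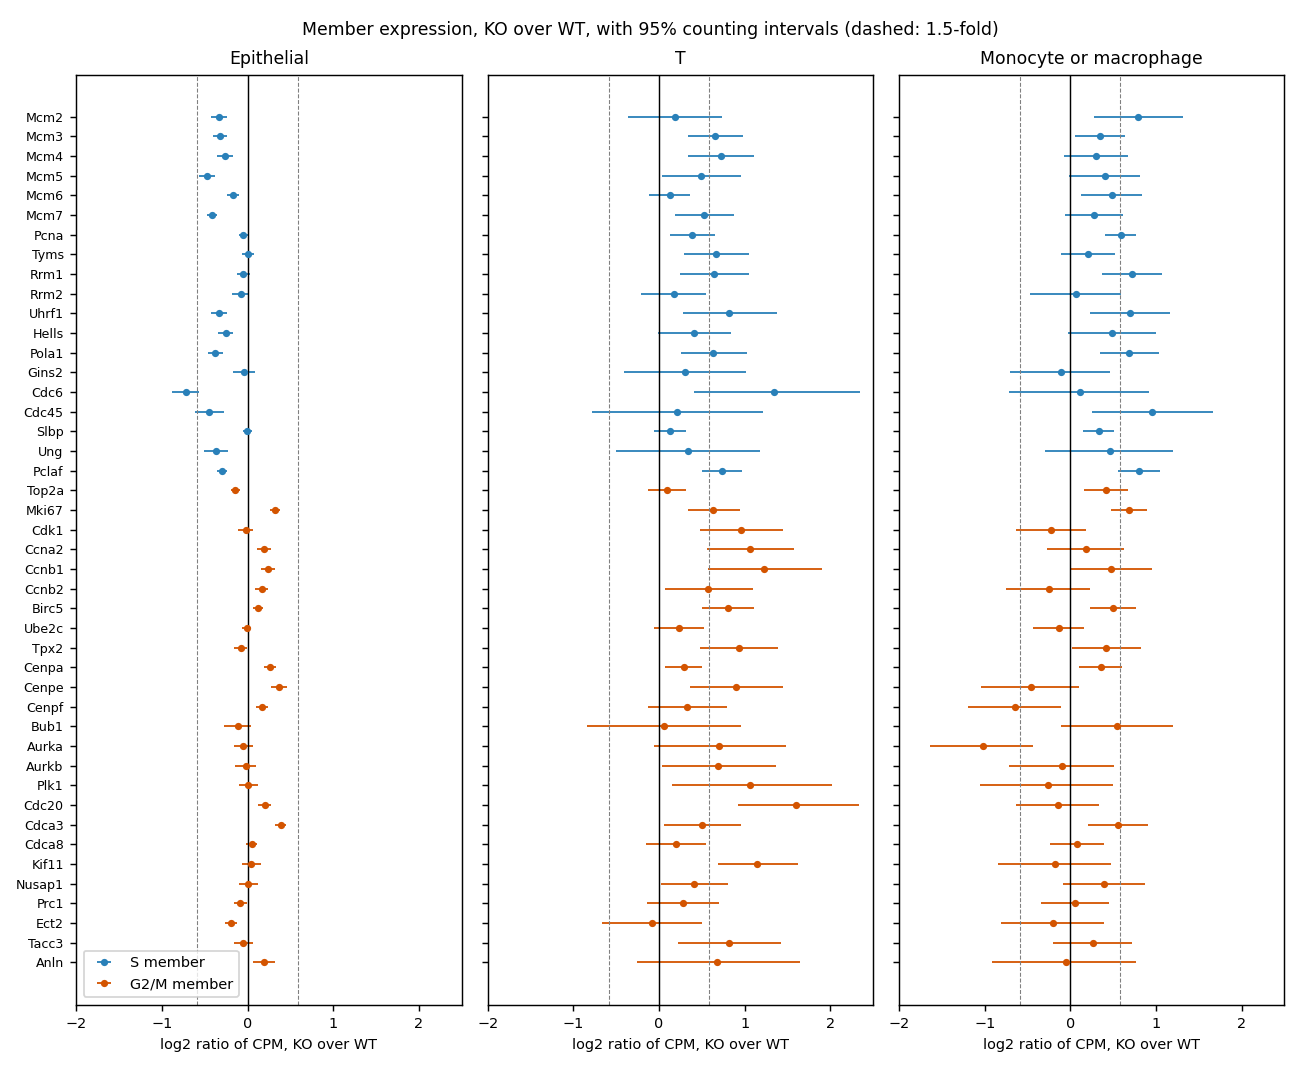
Log2 ratio of CPM, KO over WT, of the 44 members in epithelial cells, T cells, and monocytes and macrophages; points are ratios, bars 95% counting intervals, and dashed lines mark 1.5-fold. Most S members lie below 0 in the epithelium and above 0 in the other panels, and in T cells 43 of 44 points lie above 0.

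These epithelial sums depended on which epithelial states each library held. Of the 16 epithelial subclusters, 3 large ones came almost wholly from 1 library, and each held many called cells. The Krt15 and Lgr6 state, stem- or progenitor-like, held 22 KO and 809 WT cells, and 12.4% of its thinned WT cells were S-called and 15.9% G2/M-called. The Tgm4 and Gkn3 state, which the fixed markers did not name, held 7 KO and 594 WT cells, with 5.8% S-called and 11.4% G2/M-called in WT. The Fut9 and Fstl4 state, also stem- or progenitor-like, held 610 KO and 23 WT cells, with 7.32% S-called and 18.5% G2/M-called in KO. Taken as 1 group, the stem- or progenitor-like cells had overlapping G2/M shares. These were 18.1% of 623 KO cells (15.2 to 21.4) and 16% of 826 WT cells (13.5 to 18.7). The group was S-called at 7.38% in KO and 12.1% in WT, and 25.5% of its KO and 28.1% of its WT cells were called. Without these 3 states, an alternative chosen after seeing the data, the summed S members turned to a log2 ratio of 0.24 and the G2/M members moved to 0.68, and 11.6% of KO and 7.09% of WT epithelial cells were called.

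Within the shared states, which leave out the stem- or progenitor-like states, the KO cells were more often G2/M-called. Of the 10 subclusters with 50 or more thinned cells in each library, the G2/M share was higher in KO in 10, with a mean over states of 12.5% in KO and 6.88% in WT (7.63% in KO and 3.94% in WT without the states of under 3000 median UMIs, a setting chosen after seeing the data); the mean S share was 1.88% in KO and 2.11% in WT. The summed G2/M members were higher in KO in the same 10 states (median log2 0.41, from 0.03 to 0.88), and the S members in 7. In the state led by Adh1 and Slc5a8, a transporter of short-chain fatty acids, 22.1% of 384 KO cells (18.1 to 26.6) and 10% of 110 WT cells (5.1 to 17.2) were G2/M-called. In the state led by the keratin Krt14 and by Myl7, 13.5% of 281 KO cells and 6.47% of 232 WT cells were G2/M-called. In the Clstn2 and Col9a3 state, Wnt-high tumour-like, the shares were 8.48% of 979 KO cells and 6.16% of 568 WT cells, and their intervals overlap. Goblet-like cells were at 7.66% in KO and 4.23% in WT, and cells led by Lyz1 and Wnt3 at 5.63% in KO and 3.16% in WT. Of the 10 shared states, the Adh1 state alone had G2/M intervals that do not overlap between the libraries.

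Few cells were called in the Wdr49 and Pdk4 state, also Wnt-high tumour-like, where 1 of 92 KO cells and 1 of 173 WT cells were G2/M-called. Mature absorptive-like cells, led by Clca4b, had 1 of 296 KO cells and 0 of 210 WT cells G2/M-called; the count of 0, again taken as 3 counts, allows a share of up to 1.43%. Among the shared states the highest shares in each library belonged to 2 groups of few UMIs: 35.7% of 56 KO cells and 22% of 91 WT cells in the state led by S100a8 and S100a9, genes known from neutrophils, and 28.1% of 96 KO cells and 15.3% of 131 WT cells in the state led by Gm26917, whose median mitochondrial share was 17.2%. Thinning left out 53 of 109 KO and 65 of 156 WT cells of the S100a8 state. In the Gm26917 state it left out 286 of 382 KO and 272 of 403 WT cells. Without the 4 subclusters of under 3000 median UMIs the epithelial log2 ratios were -0.21 for S and 0.09 for G2/M members.

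**Figure D3:**
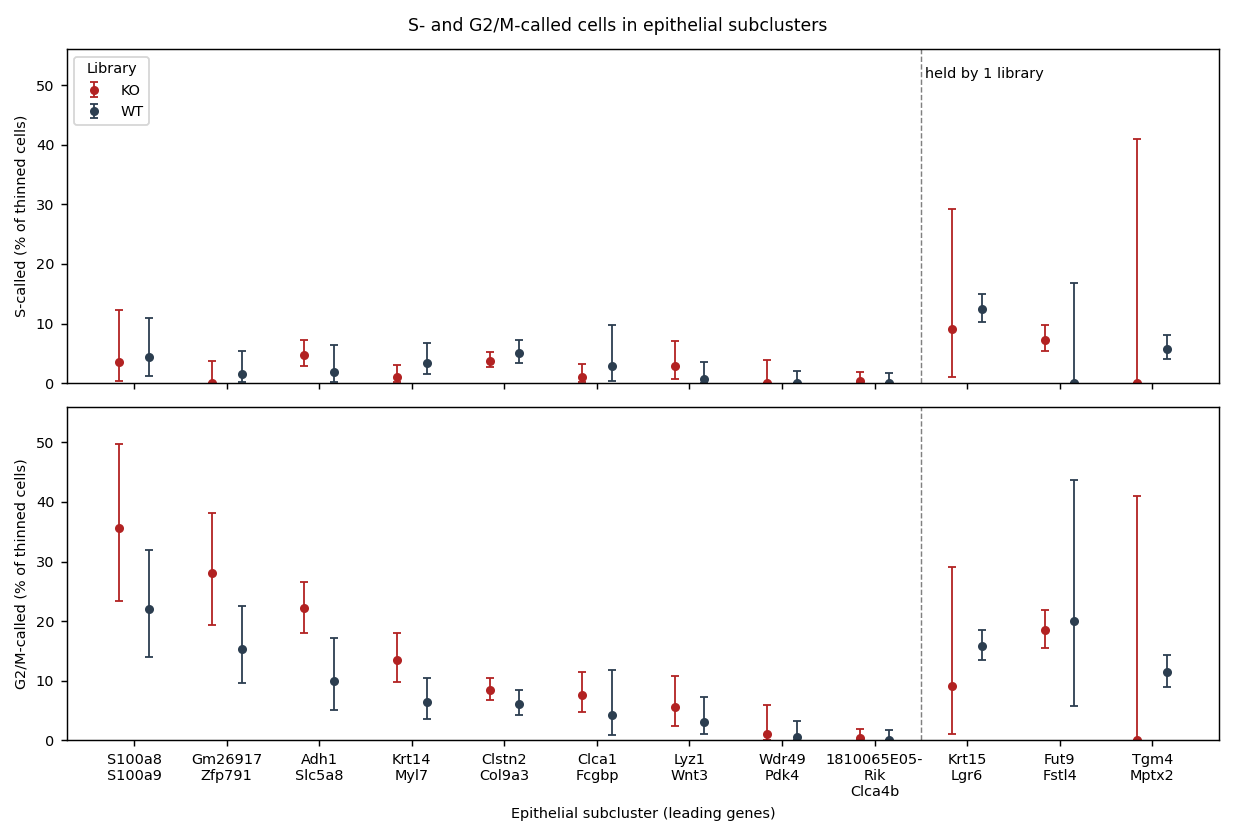
S-called (top) and G2/M-called (bottom) cells as a percentage of thinned cells in 12 epithelial subclusters, KO left of WT, with exact 95% intervals; the 3 states right of the dashed line were held by 1 library. In the 9 shared states drawn, every KO G2/M share lies above its WT share, from 35.7% in KO against 22% in WT to 0.338% in KO against 0% in WT.

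Single members followed this within-state pattern to different degrees. Mki67 was higher in KO in 10 of the 10 shared states, with log2 ratios from 0.32 to 1.10, and Cenpa likewise, from 0.13 to 0.81. Top2a, lower in KO over the whole epithelium, was higher in KO in 9 of the 10 states (median log2 0.40). Ube2c ranged from 15.6 to 255 CPM over the KO states and from 8.72 to 141 CPM over the WT states. In the Adh1 state Ube2c was at 106 CPM in KO and 62.9 CPM in WT, and Birc5 at 119 CPM in KO and 63.4 CPM in WT. Mcm7 was lower in KO in 8 of the 10 states (median log2 -0.17), and Cdc6 in 5 of the 7 states that gave a ratio (median log2 -0.14). Pclaf and Tyms were higher in KO in 8 states each.

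The members also tracked each other from cell to cell. To describe this without circularity, each epithelial cell was called again without the member in question. All 25 G2/M members were detected in a larger share of G2/M-called than of S-called cells, in each library. Mki67 was detected in 38.4% of KO cells called G2/M, 18.9% of those called S and 4.08% of those not called, and in WT in 34.4%, 16% and 3.16% of these cells. Ccnb2 separated the phases most cleanly among the cyclins, at 20.6% of G2/M-called and 1.64% of S-called KO cells and 22.9% and 2.58% in WT. Of the S members, 18 of 19 in KO and 14 of 19 in WT were detected more often in S-called cells. Pclaf was the exception in each library: it was detected in 26.4% of G2/M-called and 21.4% of S-called KO cells, and in 33.6% and 27% in WT. In WT cells Tyms, Rrm1, Gins2 and Slbp also leaned to the G2/M-called cells. Of the called epithelial cells, 17.3% in KO and 20.5% in WT passed the minimum for both lists.

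**Figure D4:**
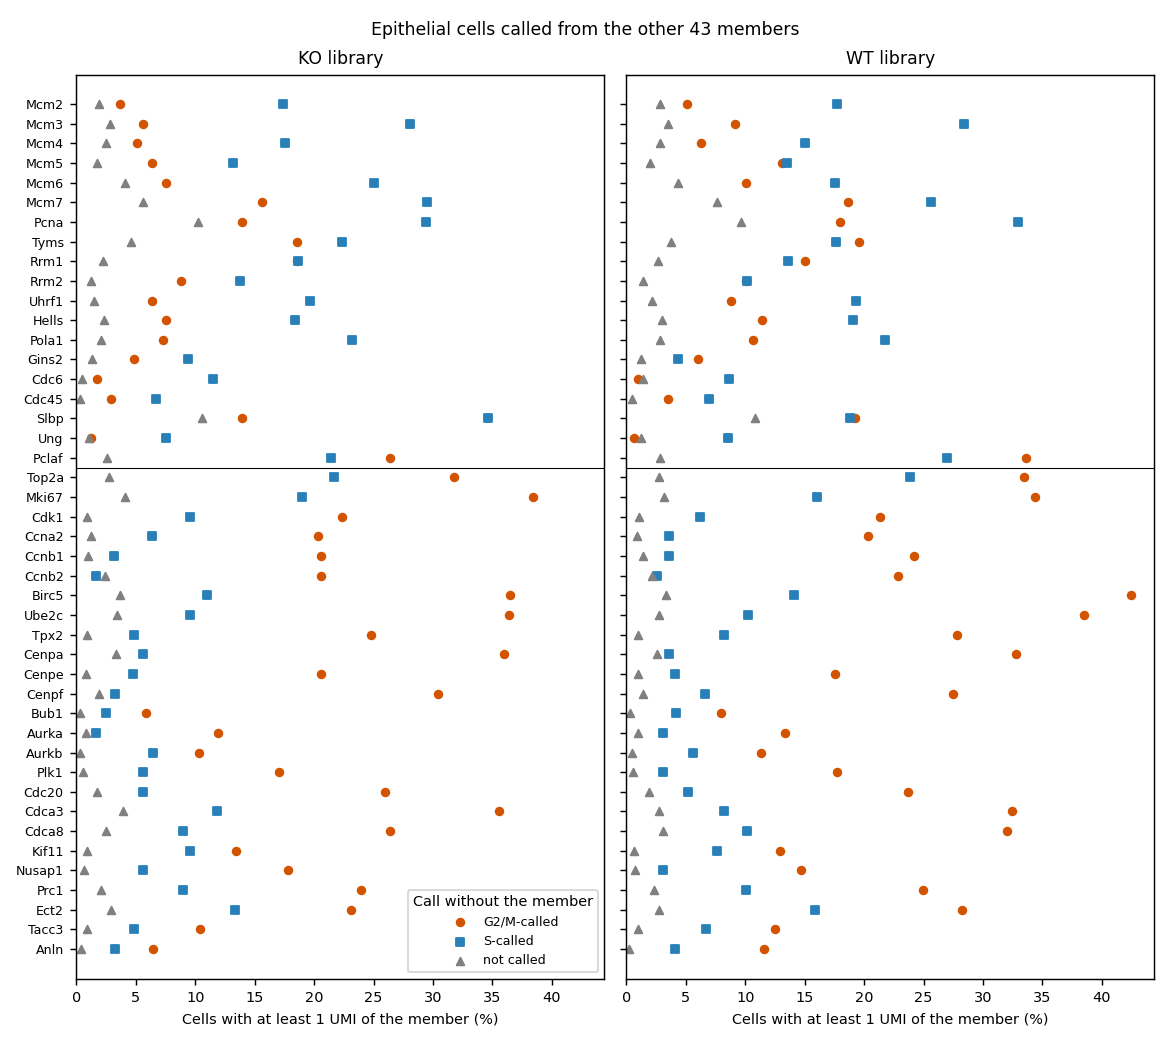
Percentage of epithelial cells with at least 1 UMI of each member, in cells called G2/M, S or neither from the other 43 members; KO library left, WT library right. The 25 G2/M members lie to the right in G2/M-called cells, while Pclaf, last of the S members, is detected in 26.4% of G2/M-called and 21.4% of S-called KO cells.

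Genes outside the panel differed between called and uncalled cells too. Of 12838 genes ranked by the smaller of their 2 library ratios, those highest in G2/M-called over uncalled epithelial cells were Pif1, a helicase, at 10.2 CPM in called and 0.246 CPM in uncalled KO cells and at 10.7 CPM and 0.295 CPM in WT, followed by the mitotic kinesin Kif18b. The condensin subunit Ncapg was at 39.3 CPM in called and 2.07 CPM in uncalled KO cells, and at 44.3 CPM and 1.89 CPM in WT. The genes lowest in G2/M-called cells were 9 alpha-defensins, near-identical genes between which reads can be split, and Chgb, which encodes a granin of enteroendocrine cells: Defa24 was at 56.8 CPM in called and 979 CPM in uncalled KO cells, and at 97.8 CPM and 1450 CPM in WT. The summed absorptive markers were at 1538 CPM in G2/M-called and 4162 CPM in uncalled KO cells, and at 1231 CPM and 3996 CPM in WT. The median per cell ran the other way, at 9.04 absorptive UMIs per 10000 in G2/M-called and 6.55 in uncalled KO cells, and at 6.42 and 5.36 in WT. The summed Wnt-high tumour markers were lower in G2/M-called cells, at 579 CPM against 1091 CPM in uncalled KO cells and 738 CPM against 1330 CPM in WT. The summed stem or progenitor markers were nearly level, at 1313 CPM against 1239 CPM in KO and 1247 CPM against 1157 CPM in WT. Single stem markers went both ways in cells called in either phase. Ascl2 was at 56.8 CPM against 32 CPM in uncalled KO cells, and at 89.3 CPM against 45.7 CPM in WT. Lgr5 was at 164 CPM against 207 CPM in KO, and at 123 CPM against 160 CPM in WT.

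In T cells 43 of 44 members were higher in KO. The summed S members were at 949 CPM in KO and 703 CPM in WT (log2 0.43, 0.35 to 0.51), and the G2/M members at 948 CPM in KO and 668 CPM in WT (log2 0.51, 0.43 to 0.59). As means over cells, which weight each cell equally, these ratios were 0.12 and 0.25. The median member had a log2 ratio of 0.61, and the median of all genes was 0.01. Past 1.5-fold stood 22 members, all of them higher, against 7.92% of 11386 genes higher and 8.62% lower. Cdc20, the activator of the anaphase-promoting complex, was furthest above WT, with 70 UMIs and 22.1 CPM in KO and 24 UMIs and 7.25 CPM in WT (log2 1.61, 0.92 to 2.34). The mitotic motor Kif11 was at 38.8 CPM in KO and 17.5 CPM in WT, Ccna2 at 32.2 CPM in KO and 15.4 CPM in WT, and Pclaf at 125 CPM in KO and 74.9 CPM in WT. Ect2 alone was lower, at 15.5 CPM in KO and 16.3 CPM in WT (log2 -0.08, -0.67 to 0.51), and Top2a differed little, at 108 CPM in KO and 101 CPM in WT.

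This T-cell difference rested on 1 subcluster. A group led by Pclaf, Hist1h1b and Ccna2 held 65 KO and 3 WT cells, with 2319 CPM of S members and 2580 CPM of G2/M members in KO. Its KO cells carried T markers at 4281 CPM and epithelial markers at 1349 CPM, against 1358 to 1906 CPM of epithelial markers in the KO cells of the other T subclusters, and its median cell had 7908.5 UMIs. Without it, an alternative chosen after seeing the data, the log2 ratios turned to -0.20 for S and -0.29 for G2/M members, and 5.5% of KO and 7.2% of WT T cells were called. Since the group is led by members, leaving it out removes called KO cells and leaves called WT cells in their types. In those types the direction varied. The Il17a type had 517 CPM of S and 240 CPM of G2/M members in KO, against 732 and 891 CPM in WT. The regulatory T type led by Il10 had 930 and 1143 CPM in KO and 661 and 759 CPM in WT, and that led by Il1rl1 had 616 and 580 CPM in KO and 610 and 545 CPM in WT.

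In monocytes and macrophages the S members were higher in KO, at 392 CPM in KO and 282 CPM in WT (log2 0.48, 0.40 to 0.55), and 18 of 19 lay above WT. The G2/M members were at 357 CPM in KO and 310 CPM in WT (log2 0.20, 0.13 to 0.28), with 13 of 25 higher. The median log2 ratio was 0.46 for S members, 0.05 for G2/M members and 0.02 for all genes. Past 1.5-fold 8 members were higher and 2 lower, against 6.07% of 12878 genes higher and 7.66% lower. Pclaf was furthest above WT by its interval, at 43.2 CPM in KO and 24.8 CPM in WT (log2 0.80, 0.56 to 1.05), and Mki67 was at 53 CPM in KO and 33 CPM in WT. The firing factor Cdc45 had a larger ratio on few UMIs, 40 in KO and 33 in WT (log2 0.96, 0.26 to 1.67). The mitotic kinase Aurka was furthest below, at 4.71 CPM in KO and 9.55 CPM in WT (log2 -1.02, -1.64 to -0.44). Of the called cells, 26 of 27 in KO and 27 of 31 in WT were macrophages with C1q genes. In the type led by Gpnmb and Mfge8, 6.1% of 164 KO cells and 3.33% of 240 WT cells were S-called, and 7.32% of KO and 6.25% of WT cells G2/M-called. In that type the S members were at 611 CPM in KO and 407 CPM in WT. None of the 257 KO and 477 WT cells of the monocyte types was called, which, at 3 counts, allows shares of up to 1.17% in KO and 0.629% in WT, and 1 KO and 4 WT cells were called among the macrophages with Arg1.

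**Figure D5:**
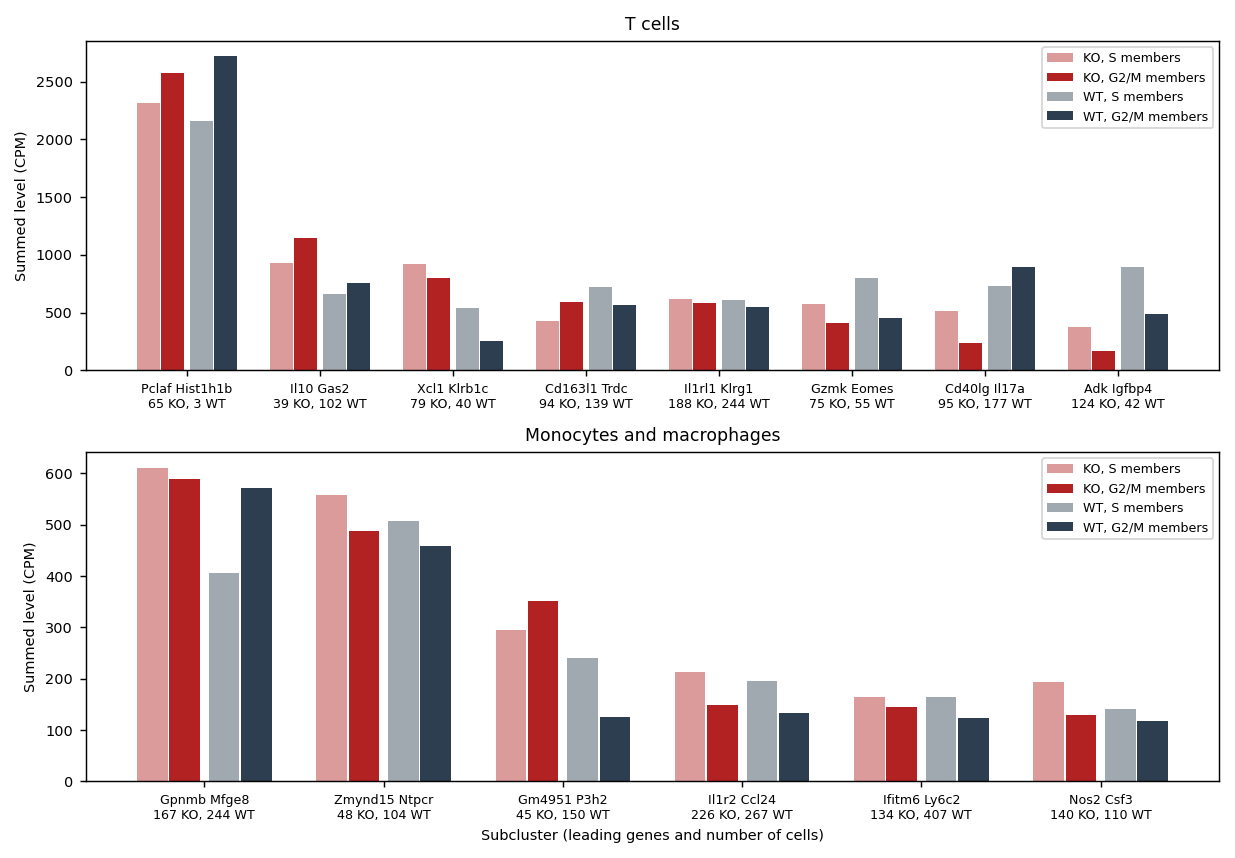
Summed CPM of S members (pale bars) and G2/M members (dark bars) in subclusters of T cells (top) and of monocytes and macrophages (bottom), KO left of WT, with cell numbers; each bar is 1 library and no error is drawn. The Pclaf group of T cells, with 65 KO and 3 WT cells, stands above 2000 CPM in every bar, and among macrophages the Gpnmb type has 611 CPM of S members in KO and 407 CPM in WT.

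B cells and neutrophils gave little. In B cells 12 of the 44 members reached 20 UMIs, and 4 of them passed 1.5-fold, all lower in KO, against 11.5% of 7922 genes lower; every interval included 0. Slbp was furthest up by its interval, with 196 UMIs in KO and 37 in WT (log2 0.23, -0.28 to 0.78). Cenpa had the largest ratio, with 78 UMIs in KO and 12 in WT (log2 0.53, -0.36 to 1.54). The polymerase subunit Pola1 was furthest down by its interval, with 40 UMIs in KO and 16 in WT (log2 -0.85, -1.72 to 0.09). Rrm1 had a lower ratio, with 24 UMIs in KO and 10 in WT (log2 -0.91, -2.02 to 0.32). In neutrophils the S members were at 178 CPM in KO and 170 CPM in WT and the G2/M members at 153 CPM in KO and 135 CPM in WT, of which free RNA was expected to give 79.9 CPM and 105 CPM in KO and 79.6 CPM and 86.2 CPM in WT. Slbp alone made up 81.9 CPM in KO and 81.4 CPM in WT neutrophils. Of the 40 neutrophil members with 20 or more UMIs, 6 were higher past 1.5-fold and 0 lower, against 18.1% of 11666 genes higher and 5.99% lower, and the median of all neutrophil genes was itself at a log2 ratio of 0.17; Ccnb2, with 42 UMIs in KO and 19 in WT, was furthest above by its interval (log2 1.11, 0.30 to 1.97).

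The other cell-cycle genes, in lists of 94 further genes, were read in the same way. They were not read again without the Pclaf group of T cells or the epithelial states held by 1 library. In the epithelium 22 of 24 other replication genes were lower in KO (median log2 -0.16), against 10908 of 18524 genes. Mcm10, which joins the helicase to polymerase alpha, passed 1.5-fold at 6.03 CPM in KO and 9.64 CPM in WT. Other mitosis genes were split, with 17 of 30 higher, and the centromere gene Cenpk passed 1.5-fold on the lower side, at 6.28 CPM in KO and 9.45 CPM in WT. None of the G1 cyclins and kinases, the pocket proteins and transcription factors or the checkpoint genes passed it; Ccnd2 was at 375 CPM in KO and 281 CPM in WT and Ccnd1 at 152 CPM in KO and 189 CPM in WT. In T cells 23 of 24 replication genes and 27 of 27 mitosis genes with enough UMIs were higher in KO, against 5842 of 11386 genes. Among them were Dnmt1 (50.5 CPM in KO, 29.6 CPM in WT), Orc6 (40.7 CPM in KO, 21.2 CPM in WT) and Kif4 (14.5 CPM in KO, 5.14 CPM in WT). The repressor E2f7 had 26 UMIs in KO and 5 in WT T cells (log2 2.44, 1.04 to 4.18). In monocytes and macrophages 21 of 24 replication genes were higher, against 6754 of 12878 genes. Among them was Dut (27.2 CPM in KO, 16.6 CPM in WT). The cyclin Ccnf was at 12.2 CPM in KO and 5.33 CPM in WT.

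The largest epithelial difference in these lists was that of Cdkn1c, an imprinted inhibitor of cyclin-dependent kinases, at 41 CPM in KO and 80.3 CPM in WT (log2 -0.97, -1.02 to -0.91). It was lower in KO in 10 of the 10 shared states. Among the shared states its level was highest in the Wdr49 state, at 154 CPM in KO and 418 CPM in WT. In the S100a8 state, with the highest G2/M share of thinned cells among the shared states, it was at 45.2 CPM in KO and 108 CPM in WT. In the Adh1 state it was at 5.04 CPM in KO and 5.72 CPM in WT. Droplets without cells held Cdkn1c at 28.1 CPM in KO and 58.5 CPM in WT, and free RNA made up 11.2% of epithelial UMIs in KO and 9.48% in WT. Free RNA was not subtracted from the levels of the states, and its part in the count of 10 states was not tested.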

How the data were processed

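Single-cell RNA was captured with 10x Genomics 3′ v3 chemistry, per the labels, as 1 KO and 1 WT library. The deposited values are whole-number UMI counts per gene and barcode, written by Cell Ranger 4.0 per the file headers; the submitters' processing notes name mm10 and Seurat without a role. No source used here names the release of the gene annotation. Barcodes with 500 or more UMIs were tested against the free RNA of those with 100 or fewer (10000 draws, false discovery rate 0.001). Cells needed 200 genes and at most 25% mitochondrial UMIs, and the cells with the highest Scrublet scores were removed as doublets (0.8% per 1000 cells), since Scrublet's own threshold marked 417 KO cells and 1 WT cell. Cells were clustered with scanpy 1.11.5 and leidenalg 0.10.2 (2000 variable genes, 30 components, 15 neighbours, resolution 1) without the cell-cycle genes, and classes were named from a list of markers. Subclusters were made within classes at resolution 0.6. For these, genes correlated over cells at 0.3 or more with the summed members were dropped as well. They numbered 158 in the epithelium, 7 in T cells and 1 in monocytes and macrophages. Leaving mitochondrial, ribosomal and haemoglobin genes out of leading genes, and asking for 40% of a state's markers, were chosen after the clusters were seen.

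Counts were summed per class and library and given as CPM with exact Poisson intervals; ratios have exact conditional binomial intervals and shares exact Clopper-Pearson intervals, all at 95% and for counting error alone; a count of 0 is given with the limit that 3 counts allow. Each genotype being 1 library, nothing was tested. Values were given for the 6 S and 8 G2/M members with the most epithelial UMIs, for those furthest from WT by the interval bound nearest 0, and for up to 4 genes past 1.5-fold per further list; other members named in the text were chosen after their values were seen. The members and lists were chosen with earlier results of these data known. The calculations were tested on simulated data that held counting error alone, with the simulated phases set well apart. These simulations do not cover variation between libraries or phases less far apart. 1 epithelial subcluster enters the summaries over the 10 shared states but is not reported here by itself.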

Additional observations from a re-analysis of the deposited data

Results flagged for a closer look

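The S members had opposite directions in different cell classes: the log2 ratio of KO over WT in the epithelium minus that in T cells was -0.636, and in the epithelium minus that in monocytes and macrophages -0.678. These differences were not tested, since each genotype is 1 library, and the epithelial and T-cell directions turned without the subclusters named in the report.

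Called cells also appeared in classes too small to be compared. The share of thinned cells called S or G2/M was 9.72% of dendritic cells in KO and 6.19% in WT, 12.5% of mast cells in KO and 12.63% in WT, 5.17% of endothelial cells in KO and 5.41% in WT, and 7.69% of plasma cells in KO and 2.13% in WT, against 0.483% of neutrophils in KO and 0.417% in WT. Between 37 and 210 cells stand behind each of these shares other than those of neutrophils.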

How the results depend on the processing

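Of 167 alternative values under 25 settings, 125 moved by less than the interval of the reported value (counts of genes: by less than 1.5 times), 39 moved further, and 3 turned from a direction that lay beyond its interval. Among the 163 values with a direction 23 changed sign in all; the reported values of the others lay within their interval of 0. The 3 were the log2 ratios without the T subcluster led by Pclaf (-0.199 for S and -0.285 for G2/M members) and, for epithelial S members, without the epithelial subclusters held by 1 library (0.244); these settings and that without subclusters of few UMIs were chosen after seeing the data. Without the same subclusters the called shares in KO minus WT moved to -1.7 points in T cells and 4.48 in the epithelium, and the epithelial G2/M ratio to 0.678. For epithelial S and G2/M members the ratios were -0.149 and 0.145 with median-of-ratios scaling, -0.18 and 0.114 with totals free of mitochondrial and ribosomal protein genes, -0.15 and 0.178 as means over cells, -0.23 and 0.0528 with every barcode of 1000 or more UMIs, and -0.255 and 0.00808 without doublet removal. Means over cells gave 0.123 and 0.253 in T cells and 0.358 for S members in monocytes and macrophages. Monocytes and macrophages also moved to 0.615 (S) with free RNA subtracted, 0.569 (S) and 0.316 (G2/M) with every barcode, 0.0662 (G2/M) without doublet removal and 0.572 (S) with cell-cycle genes kept in clustering. Without doublet removal the ratio was 0.325 for S members in T cells, and -0.414 (S) and -1.05 (G2/M) in B cells, where members of 50 or more UMIs gave 0.53 for G2/M. The S share of member UMIs in KO minus WT was -5.48 points in the epithelium without Pcna and Ube2c, and without doublet removal -4.46 in the epithelium, -3.23 in T cells, 11 in B cells and 7.15 in monocytes and macrophages. Called shares in KO minus WT moved, thinned to 5000 UMIs, to 9.98 points in T cells, -6.83 in B cells and 5.45 in monocytes and macrophages; without thinning, to -2.77 in T cells and 5.32 in monocytes and macrophages; with at least 2 UMIs, to 3.44 in the last; and without doublet removal to -2.71 in B cells. With 50 or more UMIs, 15 of the further cell-cycle genes passed 1.5-fold in T cells, against 24 with 20 or more, and 4 in B cells, against 16. The lists held 94 genes, not all of which reached these UMIs. Of all genes with 20 or more UMIs, 16.5% passed 1.5-fold in T cells and 25.2% in B cells. The share of all genes at 50 or more UMIs was not computed. The causes were not tested. The number of cells limits B cells, with 98 thinned WT cells, and depth limits neutrophils, of which 2270 of 3720 KO and 828 of 2746 WT cells were too shallow to be thinned. No paired analysis was possible because each genotype has 1 library.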
